A study of Mus musculus with 6 samples.

Results

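Mitosis genes were compared between Vldlr-positive and Vldlr-negative tendon stem/progenitor cells of the mouse. The set held 40 genes of G2 and mitosis given by symbol: cyclins and kinases, spindle checkpoint and centromere proteins, kinesins, cytokinesis proteins and chromosome proteins. All 40 were found among the 15711 genes of the deposited table. Tendon stem/progenitor cells are fibroblast-like cells isolated from tendon that divide in culture and keep the ability to differentiate. The protocols in the labels describe flow cytometry of Col1a1-lineage cells on Vldlr, the very low density lipoprotein receptor, and then culture in DMEM with 20% fetal bovine serum before RNA was taken. The series describes the aim as finding the part that Vldlr-positive cells have when tendon regenerates. There were 3 libraries labelled Vldlr-positive and 3 labelled Vldlr-negative. The genotype label of all 6 reads Col1alpha-Cre with a YFP reporter, in which the collagen promoter drives the recombinase; the number after alpha differs from sample to sample, and the samples were read as the same genotype because the population label gives Col1alpha1 in each. No label gives strain, age or sex, or says whether the 3 libraries of a group came from separate animals or cultures. The p-values thus describe the spread among these libraries, which could be technical.

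Mitosis is driven by cyclin B bound to Cdk1, which the Cdc25 phosphatases switch on. Polo-like and Aurora kinases then build the spindle, and the spindle checkpoint holds the cell until every chromosome is attached. The anaphase-promoting complex, with Cdc20, ends mitosis by marking cyclin B and securin for destruction. Most of these genes are transcribed late in the cell cycle, from promoters that carry CCAAT boxes, bound by NF-Y, and a CHR element, through which the DREAM complex represses them in resting cells and B-Myb and Foxm1 activate them in dividing cells. The summed RNA of such genes in a culture therefore depends on how many cells are in G2 and mitosis and on how much RNA each holds, and in bulk libraries these cannot be told apart.

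The values are RPKM, the reads of a gene divided by its exon length and by the size of the library. Multiplying by exon length gave whole reads for 15668 of the 15669 genes with a known length, in sum 17637318 to 17693349 per labelled-positive library and 17261092 to 17330254 per labelled-negative library, so depth was even. The exception was Vldlr. It was listed at 4.73, 3.97 and 3.70 RPKM in labelled-positive replicates 1 to 3, against 0.961, 0.959 and 0.467 RPKM in labelled-negative replicates 1 to 3, and adding 5 RPKM turned the labelled-negative values into whole numbers of 1118, 1117 and 1025 reads. Those would be 5.96, 5.96 and 5.47 RPKM, above all 3 labelled-positive values. The level of Vldlr was therefore not used to check the labels, and the groups are named as labelled. Every direction given here rests on those labels. The 12 tendon fibroblast markers were all detected and summed to 12616 to 13735 RPKM in labelled-positive and to 4725 to 4988 RPKM in labelled-negative libraries. Fmod, Col1a1 and Comp had the highest labelled-positive means, at 3152, 3027 and 2615 RPKM, against 288, 1789 and 335 RPKM in labelled-negative libraries. Of the 12 markers 9 were higher and 3 lower in labelled-positive libraries (limma, fit of all genes). The higher ones included Scx and Mkx, at 1.24-fold and 1.42-fold. The lower ones were Tnmd, at 6.88 ± 0.803 RPKM in labelled-positive against 27.2 ± 2.34 RPKM in labelled-negative libraries, Pdgfra and Col3a1. Markers of other cells differed in the same comparison. The 13 macrophage markers summed to 28.0 to 35.8 RPKM in labelled-positive libraries, where Tyrobp was at 0, and to 576 to 699.5 RPKM in the labelled-negative ones, and all 13 were lower. Lyz2 made up most of both sums, at a mean of 27.4 RPKM in labelled-positive and 430 RPKM in labelled-negative libraries. The 9 Schwann cell markers summed to 113 to 122 RPKM in labelled-positive and 20.6 to 22.4 RPKM in labelled-negative libraries, with 8 higher and S100b lower. Ngfr made up most of the labelled-positive sum, at a mean of 72.2 RPKM against 4.98 RPKM in labelled-negative libraries. S100b made up most of the labelled-negative sum, at a mean of 15.4 RPKM against 4.50 RPKM in labelled-positive libraries. The 9 endothelial markers summed to 18.9 to 20.5 RPKM in labelled-positive and 4.81 to 5.95 RPKM in labelled-negative libraries, where Cdh5 and Tie1 were at 0, with 8 higher and Tek lower. Tek made up most of the labelled-negative sum, at a mean of 3.52 RPKM against 0.496 RPKM in labelled-positive libraries. The 9 pericyte and smooth muscle markers summed to 699.7 to 792 RPKM in labelled-positive and 208 to 239 RPKM in labelled-negative libraries. Acta2 made up most of that sum, at 703 ± 50.2 RPKM in labelled-positive against 202 ± 16.6 RPKM in labelled-negative libraries (SD, n = 3 per group), while 4 of the 9 were higher and 5, Myh11, Cspg4, Des, Kcnj8 and Abcc9, were lower. Their part in the mitotic gene results was not tested.

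Promoters are shown for the 4 genes with the largest log2 increases among those in the RefSeq promoter table, and for 4 of the 6 genes that did not pass the test, so that their shared letters can be read beside the values that follow. The second 4 were picked after their values were seen. Each window runs from 250 bases before to 50 bases after the annotated start (RefSeq, GRCm38.p6), 5′ to 3′ on the gene's strand. Capitals mark a CCAAT box (CCAAT, or ATTGG on the other strand) or a CHR element (TTTGAA or, on the other strand, TTCAAA; also TTCGAA, which reads the same on both). The first 4 are the genes that were higher.
Plk1, chr7:122159185-122159484, plus strand: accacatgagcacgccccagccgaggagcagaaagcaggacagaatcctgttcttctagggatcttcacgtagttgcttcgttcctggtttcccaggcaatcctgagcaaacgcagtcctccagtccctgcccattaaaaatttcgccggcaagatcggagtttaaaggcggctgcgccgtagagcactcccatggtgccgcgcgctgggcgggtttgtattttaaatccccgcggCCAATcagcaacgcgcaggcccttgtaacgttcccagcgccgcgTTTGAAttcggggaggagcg
Ube2c, chr2:164769679-164769978, plus strand: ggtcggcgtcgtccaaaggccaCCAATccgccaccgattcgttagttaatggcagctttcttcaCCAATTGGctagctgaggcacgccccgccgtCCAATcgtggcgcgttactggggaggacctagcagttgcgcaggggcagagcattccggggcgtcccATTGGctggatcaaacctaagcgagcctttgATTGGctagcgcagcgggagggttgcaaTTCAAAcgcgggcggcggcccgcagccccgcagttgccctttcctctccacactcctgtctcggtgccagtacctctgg
Cdc20, chr4:118437294-118437593, minus strand: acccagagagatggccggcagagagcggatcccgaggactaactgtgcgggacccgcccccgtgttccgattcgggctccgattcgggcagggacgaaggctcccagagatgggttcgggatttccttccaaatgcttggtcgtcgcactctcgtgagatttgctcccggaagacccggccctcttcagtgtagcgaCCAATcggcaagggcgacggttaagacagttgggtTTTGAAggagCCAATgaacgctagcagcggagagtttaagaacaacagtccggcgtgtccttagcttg
Ccnb2, chr9:70421505-70421804, minus strand: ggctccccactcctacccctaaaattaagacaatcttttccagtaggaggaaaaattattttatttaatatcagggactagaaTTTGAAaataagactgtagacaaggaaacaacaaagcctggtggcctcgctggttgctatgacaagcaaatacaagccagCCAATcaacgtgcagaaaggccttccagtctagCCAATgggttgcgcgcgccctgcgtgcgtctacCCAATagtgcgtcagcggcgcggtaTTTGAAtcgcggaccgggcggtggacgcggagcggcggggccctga
The next 4 are genes that did not pass the test.
Mki67, chr7:135716330-135716629, minus strand: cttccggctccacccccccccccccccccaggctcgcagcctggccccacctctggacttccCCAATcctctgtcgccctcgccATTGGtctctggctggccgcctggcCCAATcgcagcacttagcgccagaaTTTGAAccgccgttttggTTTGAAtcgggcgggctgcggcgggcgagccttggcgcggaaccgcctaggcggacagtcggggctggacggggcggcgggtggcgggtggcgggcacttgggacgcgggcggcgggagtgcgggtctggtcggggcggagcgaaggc
Smc2, chr4:52438971-52439270, plus strand: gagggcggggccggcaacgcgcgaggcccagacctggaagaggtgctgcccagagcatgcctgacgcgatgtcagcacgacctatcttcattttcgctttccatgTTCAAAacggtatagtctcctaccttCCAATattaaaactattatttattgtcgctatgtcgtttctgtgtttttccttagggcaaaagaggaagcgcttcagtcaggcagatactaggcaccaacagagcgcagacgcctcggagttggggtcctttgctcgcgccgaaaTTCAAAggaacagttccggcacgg
Cdc25b, chr2:131186698-131186997, plus strand: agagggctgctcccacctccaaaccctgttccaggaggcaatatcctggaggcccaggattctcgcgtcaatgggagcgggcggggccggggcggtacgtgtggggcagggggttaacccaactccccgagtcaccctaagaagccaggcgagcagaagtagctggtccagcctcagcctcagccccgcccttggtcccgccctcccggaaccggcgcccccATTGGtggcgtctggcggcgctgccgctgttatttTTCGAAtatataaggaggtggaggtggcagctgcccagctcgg
Pttg1, chr11:43425932-43426231, minus strand: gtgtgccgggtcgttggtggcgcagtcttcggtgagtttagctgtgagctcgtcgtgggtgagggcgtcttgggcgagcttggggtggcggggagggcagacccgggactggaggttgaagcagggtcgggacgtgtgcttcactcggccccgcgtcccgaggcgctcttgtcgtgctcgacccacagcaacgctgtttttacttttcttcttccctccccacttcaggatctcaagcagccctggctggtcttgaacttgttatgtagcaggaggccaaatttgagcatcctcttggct
Positions are counted from the start, with the first transcribed base as 1 and the base before it as -1, and refer to the first letter of the match. In Plk1 the CCAAT box was at -14 and the CHR at 31. Cdc20 held CCAAT boxes at -53 and -8 with a CHR at -18 between them. Ccnb2 held CCAAT boxes at -87, -54 and -21 and CHR matches at -167 and 5. Ube2c held 6 CCAAT matches, of which the pair at -186 and -183 share letters, and a CHR at -29. Among the genes that did not pass, Mki67 held 3 CCAAT matches and CHR matches at -116 and -98, Smc2 a CCAAT at -119 and CHR matches at -145 and 27, and Cdc25b an ATTGG at -28 and the TTCGAA form at 8, while Pttg1 held neither motif in this window. The Pttg1 window lay wholly inside the gene as annotated in GENCODE M21 (chr11:43420250-43426251). Bases before the outermost start of Pttg1 were therefore not searched.

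Of the 40 genes, 32 had 35 promoter windows in the table. The table had no window for Ccna2, Cdc25c, Aurkb, Incenp, Kif20a, Tpx2, Smc4 and Foxm1. A CHR match was present in 29 of the 35 windows (82.9%), against 6316 of all 32851 promoters (19.2%), and a CCAAT match in 29 of the 35 (82.9%), against 12289 of all promoters (37.4%). The E2F motifs TTTGGCGC, TTTCCCGC and TTTCGCGC, on either strand, were found in 1 of the 35 windows (2.86%), that of Cdk1, against 606 of all promoters (1.84%). These motifs are known from studies of such genes, so their frequency describes the set and was not tested. A missing match says only that the letters are not in this window. The windows of Pttg1 and Kif2c lay wholly inside the annotated gene, so bases before its outermost start were not searched. Both genes are counted below among those without a CCAAT match, and Pttg1 also among those without a CHR match. Of 26 genes with a CHR match 22 were higher in the labelled-positive libraries (the fit of all 40 genes described next), with a median log2 fold change of 0.62, and of the 6 without one 4 were higher, with a median of 0.33. Of 26 genes with a CCAAT match 21 were higher, with a median of 0.57, and of the 6 without one 5 were higher, with a median of 0.63. In the same fit 25.7% of all genes were higher, and their median log2 fold change was -0.01. Whether either motif goes with the change was not tested, and each group without a match held only 6 genes.

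**Figure D1:**
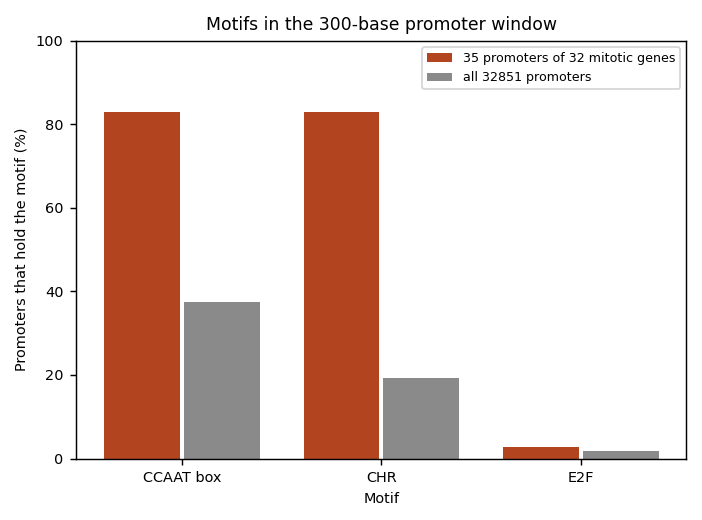
Share of promoter windows that hold each motif, for 35 windows of 32 mitotic genes (left bars) and for all 32851 windows of the table (right bars), in percent. The CHR was found in 82.9% of the mitotic gene windows and 19.2% of all windows, the CCAAT box in 82.9% and 37.4%, and the E2F motifs in 2.86% and 1.84%.

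Mitotic genes were mostly higher in labelled-positive libraries. When all 40 were tested, 33 were higher, 1 was lower and 6 did not pass (limma on log2(RPKM + 1) across all 15711 genes, Benjamini-Hochberg adjusted p under 0.05), where 25.7% of all genes were higher and 26.5% lower in the same fit. The median log2 fold change was 0.62 over the 40 genes and -0.01 over all genes. On this scale the change of a gene near 1 RPKM is understated, because 1 RPKM is added to each value. With limma voom on the worked-out reads, which does not have that limit, 33 of the 40 were higher and 0 were lower (1 by an unadjusted p under 0.05), with a median of 0.96, against 26.1% higher and 27.8% lower and a median of -0.02 over all genes. In 33 of the 40 genes all 3 labelled-positive values lay above all 3 labelled-negative ones, where 29.7% of all genes did so, in 0 they all lay below (31% of all genes), and in 7 the groups overlapped. As ratios of mean RPKM, 19 genes were at 2-fold or more (6.35% of all genes were), 9 between 1.5-fold and 2-fold, 8 between no change and 1.5-fold, and 4 were below 1.

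**Figure D2:**
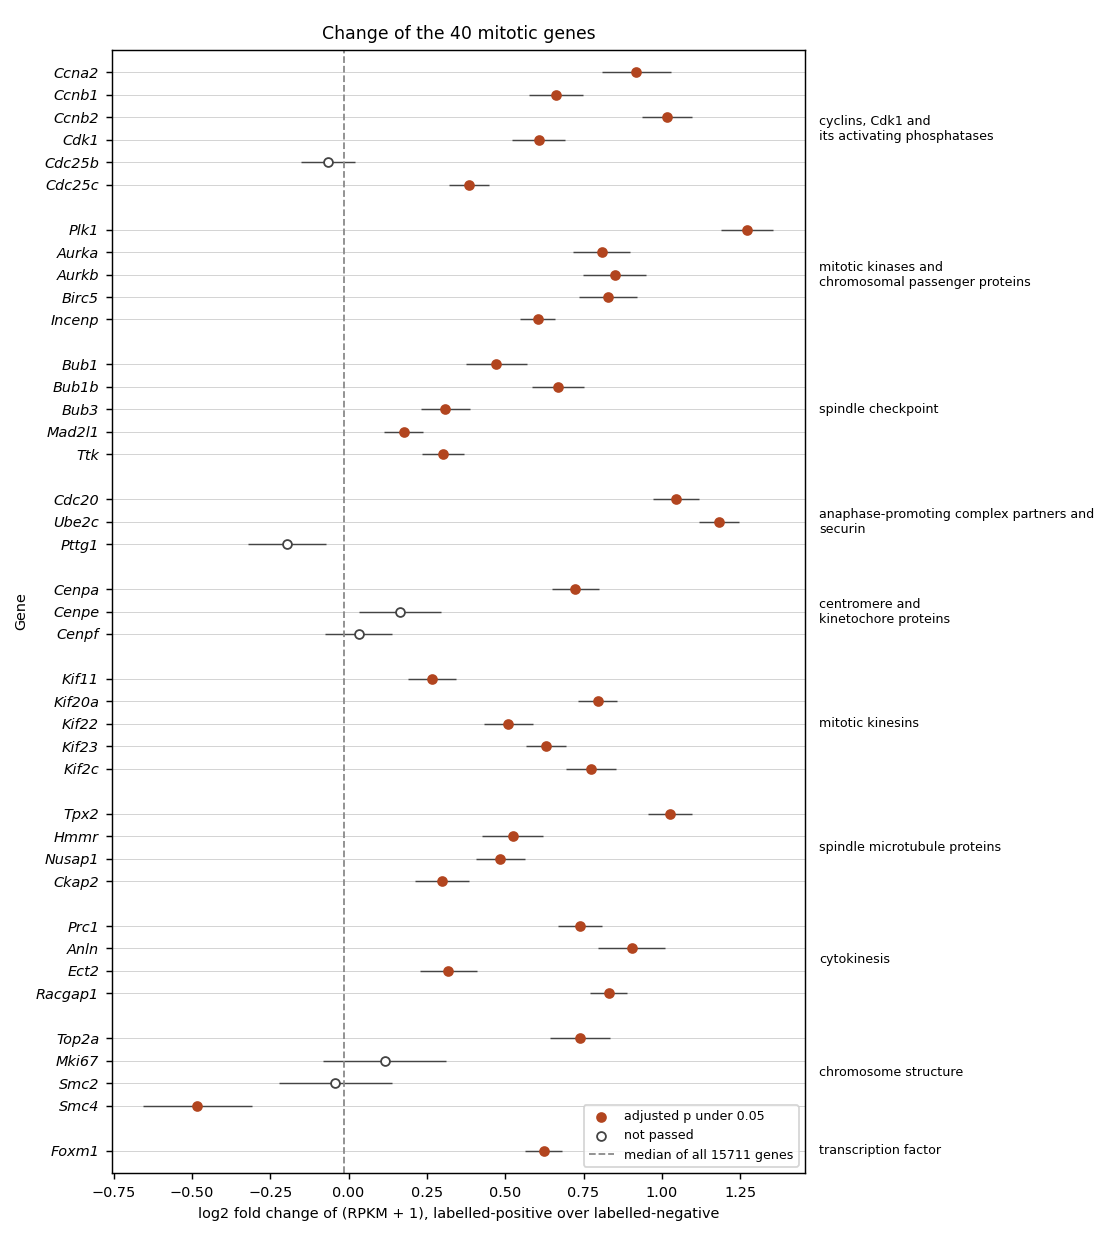
Log2 fold change of RPKM + 1, labelled-positive over labelled-negative, for the 40 mitotic genes by role (points, with SE bars; limma without a filter on low values). Filled points had an adjusted p under 0.05, and the dashed line is the median of all 15711 genes, -0.01. Of 34 filled points 33 lie to the right of 0 and Smc4 to the left.

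The filtered test required 1 RPKM in 3 or more libraries, which left 36 of the 40: 31 were higher, 1 was lower and 4 did not pass, where 29.7% of the 12116 genes tested were higher and 26.1% lower. Cdc25c, Ttk, Cenpe and Cenpf fell under that limit, and 10 of the 36 reached it in all 3 labelled-positive libraries but not in all 3 labelled-negative ones, so the counts over all 40 are given first. Those 10 were Ccnb1, Aurkb, Birc5, Bub1, Cenpa, Kif11, Kif22, Kif23, Kif2c and Ect2. In the fit of all genes, which does not depend on that limit, their log2 fold changes were the same. All 10 were called higher there, with limma adjusted p from 1.1e-04 to 0.022. Fold changes and p-values of single genes below come from the filtered fit, and those of the 4 genes under the limit from the fit of all genes. Against a 1.5-fold change on the log2(RPKM + 1) scale, 7 of the 36 were higher (4.43% of all genes were), 6 of the 40 in the fit of all genes (3.42%) and 21 of the 40 with limma voom (6.06%). Those 7 were Plk1, Ube2c, Cdc20, Tpx2, Ccnb2, Racgap1 and Kif20a. When libraries were scaled by total reads alone, the median log2 fold change of all genes was -0.15, against 0.02 in the deposited scaling. There 26 of the 36 were higher and 2, Smc4 and Pttg1, were lower, where 15.5% of all genes were higher and 45.6% lower, and 5 were past a 1.5-fold increase (3.29% of all genes). Bub3, Mad2l1, Kif11, Ckap2 and Ect2 were the genes that no longer passed. The levels themselves were low. The median level of the 40 genes was 2.74 RPKM in labelled-positive and 1.53 RPKM in labelled-negative libraries, against medians over all 15711 genes of 3.84 RPKM in labelled-positive and 4.00 RPKM in labelled-negative libraries.

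**Figure D3:**
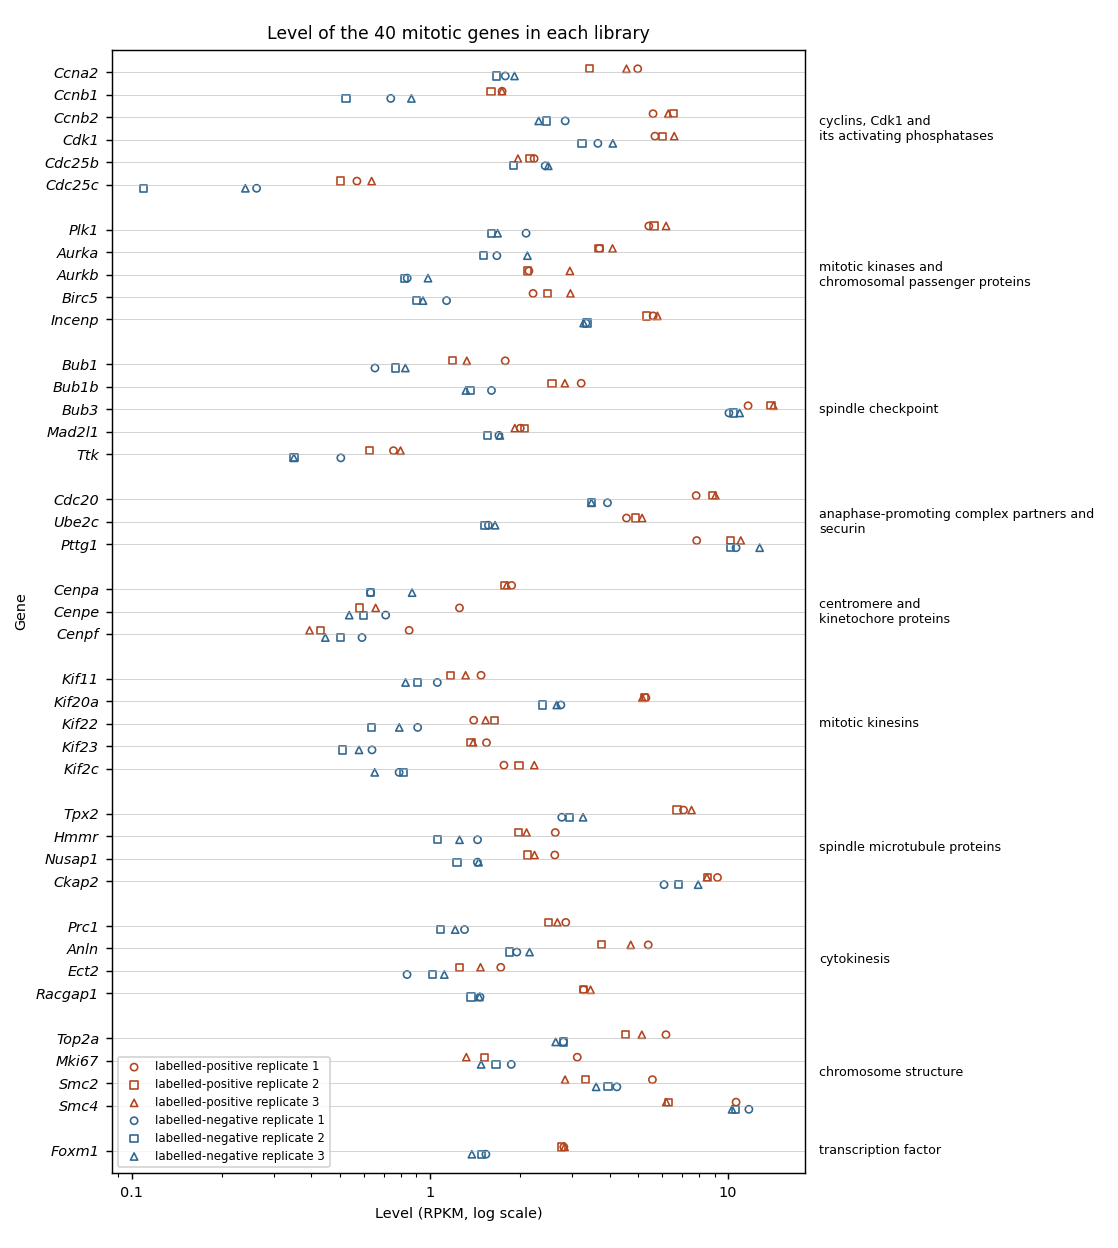
Level of each of the 40 mitotic genes in the 6 libraries, in RPKM on a log axis, grouped by role. Labelled-positive libraries are drawn above labelled-negative ones and the marker shape gives the replicate. For Cdc25b, Pttg1, Cenpe, Cenpf, Mki67, Smc2 and Smc4 the groups overlap, and for the other 33 genes they do not.

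Counts by role, here and below, come from the fit of all genes, where 25.7% of all genes were higher and 26.5% lower. Of the 6 cyclins, Cdk1 and Cdc25 phosphatases 5 were higher, and Cdc25b did not pass. Ccnb2, cyclin B2, was at 5.60, 6.57 and 6.30 RPKM in labelled-positive replicates 1 to 3, against 2.84, 2.46 and 2.31 RPKM in labelled-negative replicates 1 to 3. It was 2.43-fold higher with no overlap between the groups (limma log2 fold change 1.02 ± 0.08 SE, adjusted p = 1.5e-05). Ccna2, the cyclin of S phase and early mitosis, was at 4.97, 3.42 and 4.56 RPKM in labelled-positive replicates 1 to 3, against 1.79, 1.67 and 1.92 RPKM in labelled-negative replicates 1 to 3. It was 2.41-fold higher (limma log2 fold change 0.92 ± 0.11 SE, adjusted p = 1.9e-04), and labelled-positive replicate 2 was the lowest of its group. Cyclin B1 (Ccnb1) rose 2.39-fold to 1.70 ± 0.0828 RPKM in labelled-positive, against 0.709 ± 0.174 RPKM in labelled-negative libraries, and Cdk1, the kinase that both B cyclins activate, rose 1.66-fold to 6.09 ± 0.463 RPKM in labelled-positive, against 3.66 ± 0.435 RPKM in labelled-negative libraries (SD, n = 3 per group, as for every ± below). Cdc25c, a phosphatase that activates Cdk1 at mitotic entry, was at 0.569, 0.502 and 0.637 RPKM in labelled-positive replicates 1 to 3, against 0.262, 0.109 and 0.240 RPKM in labelled-negative replicates 1 to 3. These values rested on 46, 41 and 52 reads in labelled-positive and 24, 10 and 22 reads in labelled-negative libraries, and the gene was called higher in the fit of all genes (limma log2 fold change 0.38 ± 0.06 SE, adjusted p = 0.0015). Its relative Cdc25b was at 2.23, 2.17 and 1.97 RPKM in labelled-positive replicates 1 to 3, against 2.43, 1.90 and 2.49 RPKM in labelled-negative replicates 1 to 3. The groups overlapped and the gene did not pass (limma log2 fold change -0.06 ± 0.09 SE, adjusted p = 0.55).

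All 5 mitotic kinases and chromosomal passenger proteins were higher. Plk1, polo-like kinase 1, which acts at centrosomes, kinetochores and the midzone, had the largest increase of the 40 genes on the log2(RPKM + 1) scale. Plk1 was at 5.42, 5.64 and 6.19 RPKM in labelled-positive replicates 1 to 3, against 2.10, 1.61 and 1.68 RPKM in labelled-negative replicates 1 to 3. It was 3.20-fold higher (limma log2 fold change 1.27 ± 0.08 SE, adjusted p = 4.6e-06), and the lowest labelled-positive value lay above the highest labelled-negative one by more than the range within either group. Aurkb, the kinase of the chromosomal passenger complex, was at 2.15, 2.13 and 2.94 RPKM in labelled-positive replicates 1 to 3, against 0.838, 0.820 and 0.984 RPKM in labelled-negative replicates 1 to 3. It was 2.73-fold higher (limma log2 fold change 0.85 ± 0.10 SE, adjusted p = 1.8e-04), with labelled-positive replicate 3 the highest. Of its partners in that complex, Birc5 (survivin) rose 2.57-fold to 2.55 ± 0.376 RPKM in labelled-positive, against 0.994 ± 0.125 RPKM in labelled-negative libraries, and the scaffold Incenp rose 1.68-fold to 5.57 ± 0.231 RPKM in labelled-positive, against 3.32 ± 0.0449 RPKM in labelled-negative libraries. Aurka, the Aurora kinase of spindle poles, rose 2.17-fold to 3.83 ± 0.231 RPKM in labelled-positive, against 1.77 ± 0.318 RPKM in labelled-negative libraries.

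The 5 spindle checkpoint genes were all higher. Bub1b, which encodes the checkpoint protein BubR1, was at 3.21, 2.57 and 2.83 RPKM in labelled-positive replicates 1 to 3, against 1.61, 1.37 and 1.32 RPKM in labelled-negative replicates 1 to 3. It was 2.00-fold higher (limma log2 fold change 0.67 ± 0.08 SE, adjusted p = 2.5e-04). Bub1, a kinetochore kinase that recruits other checkpoint proteins, was at 1.79, 1.19 and 1.33 RPKM in labelled-positive replicates 1 to 3, against 0.653, 0.765 and 0.826 RPKM in labelled-negative replicates 1 to 3. It was 1.92-fold higher with labelled-positive replicate 1 the highest (limma log2 fold change 0.47 ± 0.10 SE, adjusted p = 0.004). Ttk, the Mps1 kinase at the top of the checkpoint, was at 0.754, 0.625 and 0.796 RPKM in labelled-positive replicates 1 to 3, against 0.502, 0.349 and 0.349 RPKM in labelled-negative replicates 1 to 3. It had 32 to 65 reads per library and was 1.81-fold higher in the fit of all genes (limma log2 fold change 0.30 ± 0.07 SE, adjusted p = 0.0064). Bub3 and Mad2l1 had the smallest ratios of mean RPKM among the 5. Bub3, the WD-repeat partner of Bub1 and BubR1, was at 13.3 ± 1.39 RPKM in labelled-positive against 10.5 ± 0.435 RPKM in labelled-negative libraries (1.27-fold, adjusted p = 0.01 with limma), the highest labelled-positive level of the 40 genes, and it did not pass with total-read scaling (adjusted p = 0.21). Mad2l1, which encodes the checkpoint effector Mad2, was at 2.00 ± 0.0756 RPKM in labelled-positive against 1.66 ± 0.0886 RPKM in labelled-negative libraries (1.21-fold, limma adjusted p = 0.041). Its call was lost when any 1 of the 6 libraries was left out (adjusted p = 0.053 to 0.13), with the replicate number as a block (adjusted p = 0.068) and with total-read and upper-quartile scaling (adjusted p = 0.54 and 0.079).

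Of the 3 genes of the anaphase-promoting complex pathway, its activator and its ubiquitin-conjugating enzyme were higher and its substrate securin did not pass. Ube2c, the enzyme that starts ubiquitin chains on the substrates, was at 4.56, 4.89 and 5.14 RPKM in labelled-positive replicates 1 to 3, against 1.57, 1.53 and 1.65 RPKM in labelled-negative replicates 1 to 3. It was 3.07-fold higher (limma log2 fold change 1.18 ± 0.06 SE, adjusted p = 1.5e-06). Cdc20, the mitotic activator of the complex, was at 7.81, 8.84 and 9.06 RPKM in labelled-positive replicates 1 to 3, against 3.94, 3.48 and 3.48 RPKM in labelled-negative replicates 1 to 3. It was 2.36-fold higher (limma log2 fold change 1.05 ± 0.07 SE, adjusted p = 6.9e-06). Pttg1, which encodes securin, the inhibitor of separase, was at 7.84, 10.2 and 11.0 RPKM in labelled-positive replicates 1 to 3, against 10.6, 10.2 and 12.8 RPKM in labelled-negative replicates 1 to 3. The groups overlapped, with labelled-positive replicate 1 the lowest of the 6 and labelled-negative replicate 3 the highest (limma log2 fold change -0.20 ± 0.12 SE, adjusted p = 0.2). Within the labelled-negative libraries securin RNA had the highest mean level of the 40 genes, at 11.2 ± 1.37 RPKM in labelled-negative libraries, with Smc4 at 10.9 ± 0.755 RPKM in labelled-negative libraries and Bub3 at 10.5 ± 0.435 RPKM in labelled-negative libraries, levels that do not differ beyond their spread. It was called lower with total-read scaling (log2 fold change -0.38, adjusted p = 0.027).

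Among the centromere genes Cenpa was higher and Cenpe and Cenpf did not pass. Cenpa, the histone H3 variant of centromeric nucleosomes, was at 1.88, 1.78 and 1.81 RPKM in labelled-positive replicates 1 to 3, against 0.632, 0.632 and 0.871 RPKM in labelled-negative replicates 1 to 3. It was 2.56-fold higher (limma log2 fold change 0.72 ± 0.07 SE, adjusted p = 7.4e-05). Cenpe, a kinesin that moves chromosomes to the spindle equator, was at 1.26, 0.580 and 0.657 RPKM in labelled-positive replicates 1 to 3, against 0.710, 0.598 and 0.536 RPKM in labelled-negative replicates 1 to 3. Labelled-positive replicate 1 was the highest of the 6, and replicates 2 and 3 lay within the range of the labelled-negative libraries (limma log2 fold change 0.16 ± 0.13 SE, adjusted p = 0.32, fit of all genes). Cenpf, a large coiled-coil protein of the outer kinetochore, was at 0.851, 0.429 and 0.394 RPKM in labelled-positive replicates 1 to 3, against 0.591, 0.501 and 0.445 RPKM in labelled-negative replicates 1 to 3. Again replicate 1 was the highest of the 6, and replicates 2 and 3 were the lowest of the 6 (limma log2 fold change 0.03 ± 0.11 SE, adjusted p = 0.82). Without labelled-positive replicate 1 the log2 fold change of Cenpf was -0.10 (adjusted p = 0.20, fit of all genes).

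The 5 mitotic kinesins were all higher. Kif20a, which carries the passenger complex to the midzone, was at 5.30, 5.25 and 5.15 RPKM in labelled-positive replicates 1 to 3, against 2.75, 2.38 and 2.66 RPKM in labelled-negative replicates 1 to 3. It was 2.02-fold higher, with the 3 labelled-positive values close together (limma log2 fold change 0.80 ± 0.06 SE, adjusted p = 1.4e-05). Kif2c, a microtubule depolymerase at centromeres, was at 1.77, 1.99 and 2.24 RPKM in labelled-positive replicates 1 to 3, against 0.787, 0.812 and 0.652 RPKM in labelled-negative replicates 1 to 3. It was 2.66-fold higher (limma log2 fold change 0.77 ± 0.08 SE, adjusted p = 7.1e-05). Kif23, a motor of the central spindle, rose 2.50-fold to 1.44 ± 0.0945 RPKM in labelled-positive, against 0.575 ± 0.0644 RPKM in labelled-negative libraries, and Kif22, a chromosome arm motor, rose 1.97-fold to 1.53 ± 0.123 RPKM in labelled-positive, against 0.778 ± 0.137 RPKM in labelled-negative libraries. Kif11, the motor that pushes spindle poles apart, had the smallest increase, 1.42-fold, at 1.32 ± 0.156 RPKM in labelled-positive against 0.931 ± 0.117 RPKM in labelled-negative libraries (limma adjusted p = 0.019). It did not pass when scaled by total reads (adjusted p = 0.10) or without labelled-negative replicate 2, labelled-negative replicate 3 or labelled-positive replicate 3 (adjusted p = 0.060, 0.065 and 0.051).

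All 4 spindle microtubule genes were higher. Tpx2, the activator of Aurora A on spindle microtubules, was at 7.08, 6.74 and 7.54 RPKM in labelled-positive replicates 1 to 3, against 2.77, 2.94 and 3.26 RPKM in labelled-negative replicates 1 to 3. It was 2.38-fold higher (limma log2 fold change 1.03 ± 0.07 SE, adjusted p = 5.5e-06). Hmmr, a spindle assembly protein also known as a hyaluronan receptor, was at 2.63, 1.99 and 2.11 RPKM in labelled-positive replicates 1 to 3, against 1.44, 1.06 and 1.26 RPKM in labelled-negative replicates 1 to 3. It was 1.79-fold higher, with labelled-positive replicate 1 the highest (limma log2 fold change 0.52 ± 0.10 SE, adjusted p = 0.0023). Nusap1, which bundles spindle microtubules, rose 1.69-fold to 2.33 ± 0.260 RPKM in labelled-positive, against 1.38 ± 0.126 RPKM in labelled-negative libraries. Ckap2, another spindle protein, rose 1.26-fold to 8.74 ± 0.410 RPKM in labelled-positive, against 6.95 ± 0.927 RPKM in labelled-negative libraries (limma adjusted p = 0.019), and did not pass with total-read scaling (adjusted p = 0.26) or without labelled-negative replicate 1 or 2 (adjusted p = 0.068 and 0.062).

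The 4 cytokinesis genes were all higher. Anln, anillin, the scaffold of the contractile ring, was at 5.39, 3.76 and 4.71 RPKM in labelled-positive replicates 1 to 3, against 1.95, 1.85 and 2.16 RPKM in labelled-negative replicates 1 to 3. It was 2.33-fold higher (limma log2 fold change 0.90 ± 0.11 SE, adjusted p = 1.8e-04), with a wider spread among the labelled-positive libraries than among the labelled-negative ones. Racgap1, which forms centralspindlin with Kif23, was at 3.27, 3.27 and 3.46 RPKM in labelled-positive replicates 1 to 3, against 1.47, 1.37 and 1.46 RPKM in labelled-negative replicates 1 to 3. It was 2.32-fold higher, and the 3 values of each group lay close together (limma log2 fold change 0.83 ± 0.06 SE, adjusted p = 8.3e-06). Prc1, which crosslinks midzone microtubules, rose 2.22-fold to 2.67 ± 0.181 RPKM in labelled-positive, against 1.20 ± 0.111 RPKM in labelled-negative libraries. Ect2, the exchange factor that activates RhoA at the cell equator, rose to 1.49 ± 0.237 RPKM in labelled-positive, against 0.990 ± 0.142 RPKM in labelled-negative libraries (limma adjusted p = 0.017), and did not pass when scaled by total reads (adjusted p = 0.071) or without labelled-negative replicate 1 (adjusted p = 0.068). Foxm1, a transcription factor of late cell cycle genes, was at 2.81, 2.76 and 2.83 RPKM in labelled-positive replicates 1 to 3, against 1.54, 1.48 and 1.38 RPKM in labelled-negative replicates 1 to 3. It was 1.91-fold higher, with the 3 labelled-positive values close together (limma log2 fold change 0.62 ± 0.06 SE, adjusted p = 5.1e-05).

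Of the 4 genes of chromosome structure 1 was higher, 1 was lower and 2 did not pass, and this role held the only member that was lower in the fit of all genes. Top2a, topoisomerase II alpha, which untangles sister chromatids, was at 6.19, 4.53 and 5.13 RPKM in labelled-positive replicates 1 to 3, against 2.80, 2.80 and 2.64 RPKM in labelled-negative replicates 1 to 3. It was 1.92-fold higher with no overlap (limma log2 fold change 0.74 ± 0.09 SE, adjusted p = 2.8e-04). Mki67, the Ki-67 antigen that coats mitotic chromosomes and is widely used to mark dividing cells, was at 3.12, 1.53 and 1.32 RPKM in labelled-positive replicates 1 to 3, against 1.87, 1.67 and 1.48 RPKM in labelled-negative replicates 1 to 3. Labelled-positive replicate 1 was the highest of the 6 libraries, replicate 3 was the lowest, and the gene did not pass (limma log2 fold change 0.12 ± 0.19 SE, adjusted p = 0.64). Smc2, a core subunit of condensin, was at 5.57, 3.33 and 2.84 RPKM in labelled-positive replicates 1 to 3, against 4.23, 3.95 and 3.61 RPKM in labelled-negative replicates 1 to 3. It did not pass either (limma log2 fold change -0.04 ± 0.18 SE, adjusted p = 0.85), and again labelled-positive replicate 1 was the highest and replicates 2 and 3 the lowest of the 6. Smc4, the partner of Smc2 in condensin, was at 10.6, 6.31 and 6.20 RPKM in labelled-positive replicates 1 to 3, against 11.7, 10.6 and 10.3 RPKM in labelled-negative replicates 1 to 3. Replicates 2 and 3 of the labelled-positive group lay below all other libraries, replicate 1 lay among the labelled-negative values, and the gene was 1.41-fold lower (limma log2 fold change -0.48 ± 0.17 SE, adjusted p = 0.041). The call of Smc4 was lost without any 1 of the 3 labelled-negative libraries (adjusted p = 0.073 to 0.12) and without labelled-positive replicate 2 or 3 (adjusted p = 0.13 for each), and with limma voom without the filter (adjusted p = 0.058). Without labelled-positive replicate 1 the log2 fold change of Smc4 was -0.71 (adjusted p = 1.9e-05), Smc2 was called lower as well (log2 fold change -0.27, adjusted p = 0.016), and Mki67 turned to a log2 fold change of -0.14 and did not pass (adjusted p = 0.18).

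Labelled-positive replicate 1 stood apart from replicates 2 and 3 in some of these genes. The ratio of its RPKM to the geometric mean of the other labelled-positive libraries was 2.19 for Mki67, 2.07 for Cenpf, 2.03 for Cenpe, 1.81 for Smc2, 1.70 for Smc4 and 1.42 for Bub1, while it was 0.740 for Pttg1, 0.818 for Birc5, 0.830 for Bub3 and 0.839 for Kif2c. These are the extremes. Over the 40 genes the median log2 of this ratio was 0.06, against -0.02 over 11800 genes, and the ratio was above 2 in 3 of the 40. Genes with long exon sequence had the higher ratios. Of the 17 mitotic genes with more than 5000 bases of merged exon 15 were above 1, and of the 23 shorter ones 11 were. Spearman's rho between exon length and this ratio was 0.57 across the 40 genes and 0.46 across 11800 genes, a description across genes of the same libraries, which are not independent replicates. The largest length effect among the labelled-negative libraries was in replicate 3, in the opposite direction (rho -0.46 across all genes and -0.29 across the 40). Over all genes the median log2 ratio of labelled-positive replicate 1 was -0.15 in the shortest and 0.15 in the longest of 5 length bins, and the log2 ratios of Mki67, Cenpf and Cenpe were 1.13, 1.05 and 1.02. The part of exon length in these differences was not tested. Without this library 32 of the 40 were higher (Mad2l1 no longer passed), 2 (Smc4 and Smc2) were lower and 6 did not pass, where 29% of all genes were higher and 30.7% lower, and 7 were past a 1.5-fold increase (3.84% of all genes). With the length trend of each library removed, 31 of 36 were higher and 2 (Smc4 and Pttg1) were lower, where 28.1% of all genes were higher and 27.3% lower, and 9 were past a 1.5-fold increase (4.49% of all genes). Both settings were chosen after the data were seen.

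**Figure D4:**
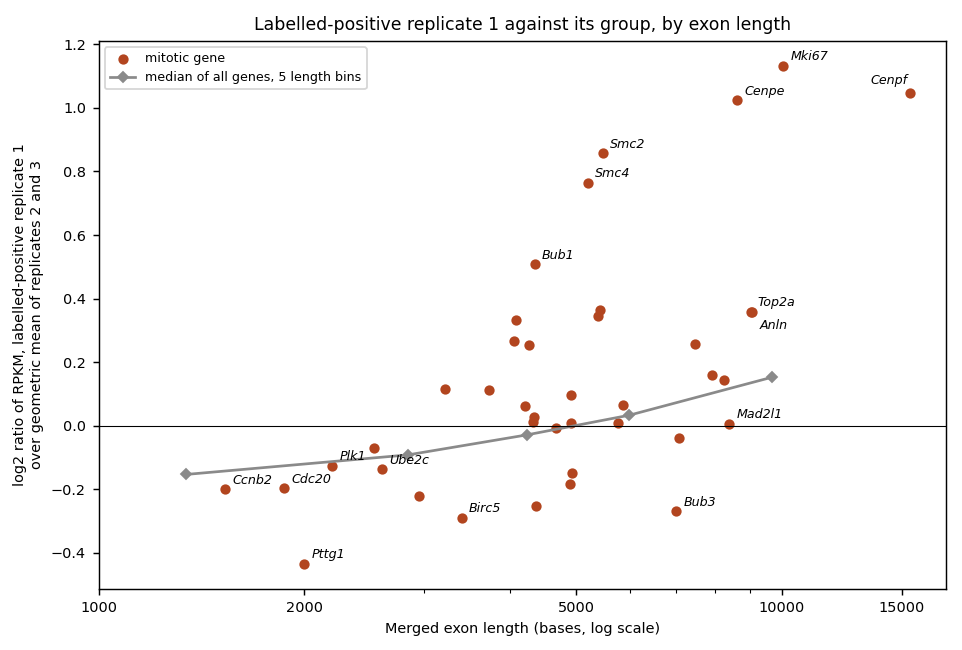
Log2 ratio of labelled-positive replicate 1 to the geometric mean of replicates 2 and 3 against merged exon length (bases, log axis) for the 40 mitotic genes (points) and as the median of all genes in 5 length bins (line). Mki67, Cenpf, Cenpe, Smc2 and Smc4 lie at 1.13, 1.05, 1.02, 0.86 and 0.76, above the line, which runs from -0.15 to 0.15.

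Genes of the same machinery that are not among the 40 were divided into 5 lists of 125 symbols, of which 122 were in the table. In the fit of all genes 65 of the 122 were higher, 12 were lower and 45 did not pass, and their median log2 fold change was 0.23, against 25.7% higher and 26.5% lower and a median of -0.01 over all genes. In the list of other kinetochore and centromere genes 17 of 31 were higher and 1 was lower. Cenpm, a subunit of the inner kinetochore, was at 2.35 ± 0.0857 RPKM in labelled-positive against 0.631 ± 0.120 RPKM in labelled-negative libraries, Hjurp, the chaperone that loads Cenpa, at 11.0 ± 0.784 RPKM in labelled-positive against 6.14 ± 0.151 RPKM in labelled-negative libraries, and Nuf2, of the Ndc80 complex, at 1.74 ± 0.0814 RPKM in labelled-positive against 0.711 ± 0.0386 RPKM in labelled-negative libraries. These were 3.73-fold, 1.79-fold and 2.44-fold higher (limma adjusted p = 7.0e-06, 2.1e-05 and 3.4e-05). Cenpm and Nuf2 reached 1 RPKM in the labelled-positive libraries only, and in the fit of all genes their limma adjusted p was 1.2e-05 and 4.8e-05. The gene that was lower was Cenpc1, which links Cenpa chromatin to the kinetochore, at 4.75 ± 0.795 RPKM in labelled-positive against 6.06 ± 0.166 RPKM in labelled-negative libraries (limma adjusted p = 0.024).

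In the list of other checkpoint and anaphase-promoting complex genes 14 of 22 were higher and 2 lower in the fit of all genes, where 25.7% of all genes were higher and 26.5% lower. The lowest adjusted p was that of Espl1, separase, the protease that opens cohesin, at 0.838 ± 0.0385 RPKM in labelled-positive against 0.194 ± 0.00350 RPKM in labelled-negative libraries (4.31-fold higher, limma log2 fold change 0.62 ± 0.05 SE, adjusted p = 1.5e-05, in the fit of all genes, since it fell under the filter). The other higher ones included Mad2l2, at 8.85 ± 0.883 RPKM in labelled-positive against 4.67 ± 0.236 RPKM in labelled-negative libraries (1.90-fold higher, limma log2 fold change 0.79 ± 0.08 SE, adjusted p = 5.2e-05), and the complex subunits Cdc16 and Anapc11, 1.33-fold and 1.42-fold higher. The subunits Anapc1 and Cdc27 were lower, at 9.30 ± 0.496 RPKM in labelled-positive against 10.9 ± 0.579 RPKM in labelled-negative libraries and 9.31 ± 2.27 RPKM in labelled-positive against 12.7 ± 1.45 RPKM in labelled-negative libraries (limma adjusted p = 0.021 and 0.036). For Cdc27 the groups overlapped, with labelled-positive replicate 1 at 11.9 RPKM and labelled-negative replicate 3 at 11.1 RPKM. With the length trend removed 10 of 19 tested genes were higher and 1 lower, where 28.1% of all genes were higher and 27.3% lower. With total-read scaling 6 of 19 tested genes were higher and 6 lower, where 15.5% of all genes were higher and 45.6% lower. In the list of other spindle, kinesin and cytokinesis genes 18 of 28 were higher and 1 lower in the fit of all genes (25.7% and 26.5% of all genes). Tacc3 and Ckap2l, both spindle proteins, and Haus8, of the augmin complex that branches microtubules, were 2.01-fold, 2.11-fold and 1.91-fold higher, and Psrc1 was 1.34-fold lower, at 16.3 ± 0.872 RPKM in labelled-positive against 21.9 ± 1.23 RPKM in labelled-negative libraries (limma log2 fold change -0.41 ± 0.06 SE, adjusted p = 8.5e-04). In the list of other mitotic entry regulators 11 of 24 were higher and 1 lower in that fit (25.7% and 26.5% of all genes). The lower one was Lin54, a subunit of the DREAM and B-Myb complexes (1.25-fold, limma adjusted p = 0.029). Melk, Cdca3 and Pbk were 2.45-fold, 2.42-fold and 2.95-fold higher.

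Of 17 condensin and cohesin genes 5 were higher and 7 lower, where 25.7% of all genes were higher and 26.5% lower, and their median log2 fold change was -0.10, against -0.01 over all genes. The higher ones included the non-SMC condensin subunits Ncaph, at 2.19 ± 0.119 RPKM in labelled-positive against 1.28 ± 0.0870 RPKM in labelled-negative libraries, and Ncapd2, at 4.34 ± 0.461 RPKM in labelled-positive against 2.60 ± 0.148 RPKM in labelled-negative libraries, and Cdca5 (sororin, which stabilises cohesin), at 2.05 ± 0.442 RPKM in labelled-positive against 0.748 ± 0.234 RPKM in labelled-negative libraries. The lower ones were all cohesin subunits or cohesin regulators: Stag2, Pds5b, Smc3, Nipbl, Stag1, Pds5a and Smc1a. Stag2 was at 13.2, 7.91 and 7.25 RPKM in labelled-positive replicates 1 to 3, against 19.2, 16.7 and 16.4 RPKM in labelled-negative replicates 1 to 3 (1.84-fold lower, limma log2 fold change -0.86 ± 0.18 SE, adjusted p = 0.0049). Smc3 was at 11.3, 6.79 and 6.60 RPKM in labelled-positive replicates 1 to 3, against 14.3, 13.2 and 13.0 RPKM in labelled-negative replicates 1 to 3 (1.64-fold lower, limma log2 fold change -0.69 ± 0.17 SE, adjusted p = 0.0092). In both genes labelled-positive replicate 1 was the highest of its group, as it was for Smc2 and Smc4. Without that library 10 of the 17 were lower and 5 higher, where 30.7% of all genes were lower and 29% higher. With total-read scaling 9 of 15 were lower and 3 higher, where 45.6% of all genes were lower and 15.5% higher. With the length trend removed 6 of 15 were lower and 4 higher, where 27.3% of all genes were lower and 28.1% higher. Of 24 DNA replication and G1/S genes 14 were higher and 1, E2f1, was lower in the fit of all genes (25.7% and 26.5% of all genes). The median log2 fold change of the list was 0.30, against -0.01 over all genes. With total-read scaling 8 of 22 were higher and 2 lower (15.5% and 45.6% of all genes). With the length trend removed 12 of 22 were higher and 1 lower (28.1% and 27.3% of all genes). With limma voom without the filter 17 of 24 were higher and 2 lower (26.1% and 27.8% of all genes). Rrm2, a ribonucleotide reductase subunit, was at 22.4 ± 1.09 RPKM in labelled-positive against 12.0 ± 1.12 RPKM in labelled-negative libraries. Mcm5 and Mcm6, of the replicative helicase, were 2.31-fold and 1.36-fold higher. Over the 5 lists (85 genes tested) and the replication genes (22 tested), the filtered fit had 13 lower genes. That count was 4 and 5 without labelled-positive replicates 2 and 3, 6 and 7 without labelled-negative replicates 1 and 2, and 18 without labelled-positive replicate 1. Over all 12116 genes the lower count moved as well, from 3167 in the filtered fit to between 2415 and 3754 when 1 library was left out. Whether the 40 mitotic genes changed by more than these lists was not tested.

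**Figure D5:**
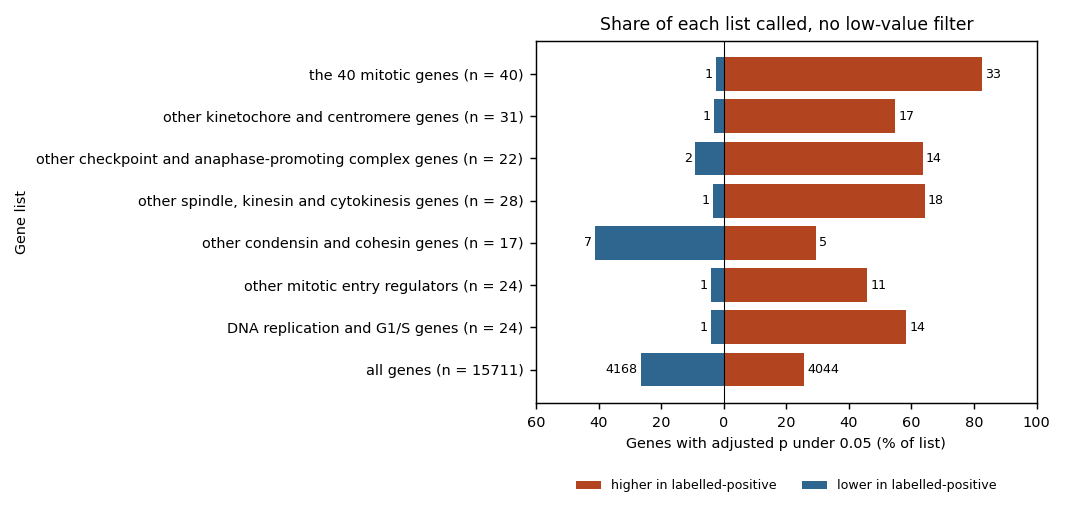
Share of each gene list with an adjusted p under 0.05 in the labelled-positive against labelled-negative comparison (limma, no filter on low values), higher to the right and lower to the left, in percent, with the number of genes at each bar. Of the 40 mitotic genes 33 were higher and 1 lower, and the condensin and cohesin list had 5 higher and 7 lower, against 4044 and 4168 of all 15711 genes.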

How the data were processed

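RNA libraries of 6 samples, 3 per group, were analysed from the table the authors deposited. The authors deposited RPKM, reads divided by exon length and by a library size that carries a composition factor (0.927 to 1.07), a unit worked out from the values because the table names none. The factor split by group: 1 read per kilobase of exon equalled 0.0602 to 0.0608 RPKM in labelled-positive and 0.0537 RPKM in labelled-negative libraries. Compared with total reads alone, the deposited scaling thus raised labelled-positive values relative to labelled-negative ones. The submitters' processing notes name the mm10 build, bcl2fastq 1.8.4 and Cell Ranger without saying what each was used for. No source used here gives the aligner, the counter or whether strand was used, so a gene that overlaps another or shares sequence with a pseudogene is uncertain. Exon lengths came from GENCODE M21 (GRCm38, the assembly mm10 names) as merged exons. RPKM times length gave whole reads in all 6 libraries for 15668 of 15669 genes with a length, to within 0.01 reads. The 12116 genes that reached 1 RPKM in 3 or more libraries were fitted by limma (version 3.58.1, trend and robust, with statmod 1.5.0 under R 4.3.3) as log2(RPKM + 1) with group as the only term, and called at a Benjamini-Hochberg adjusted p under 0.05. A gene absent from that fit was read from the same fit with no filter. Ratios are of mean RPKM. The fit was also run on simulated reads with 200 changed genes and no length trend in any library. It recovered 93 of 100 genes changed 1.5-fold and 99 of 100 changed 2-fold, and called 12 unchanged genes. The deposited data had many more called genes and a length trend, so the simulation does not show how the fit behaves on them.

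The members, roles, lists and tests were chosen with earlier results of these data known. Every member is accounted for. Values per library are given for the 2 members of each role with the largest log2 fold change in size, for called members that were lower, for members that did not pass and for those under the filter. Of the other lists, up to 3 called genes with the lowest adjusted p in the filtered fit and up to 3 called against the majority were named; Espl1 and the lower cohesin genes are named beyond that, after their values were seen. Alternatives were another pseudocount (0.1), no filter, a filter at 5 RPKM, total-read, median-ratio and upper-quartile scaling, limma voom, the replicate block and leaving out each library with the tested genes kept. Promoters are from RefSeq.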

Additional observations from a re-analysis of the deposited data

How the results depend on the processing

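Single genes kept their direction and their side of the threshold in most settings: all 36 tested members with median-ratio scaling, a pseudocount of 0.1 and limma voom with the same filter, 35 of 36 with upper-quartile scaling, and 29 of 36 with total-read scaling. The counts of all genes were 1880 higher and 5544 lower with total-read scaling, 1800 lower with a filter at 5 RPKM and 4828 lower without a filter and without labelled-positive replicate 1, against 3602 higher and 3167 lower as reported. Mitotic genes higher numbered 9 of 11 tested at 5 RPKM (37.1% of all genes there), a fall made by the filter itself. Mitotic genes lower, 1 as reported, numbered 2 with total-read scaling, 2 with the length trend removed, 2 without a filter and without labelled-positive replicate 1, and 0 with limma voom without a filter (1 by an unadjusted p under 0.05). The median log2 fold change of the members, 0.65 in the filtered fit, was 0.93 with a pseudocount of 0.1, 0.54 with total-read scaling, 0.99 with limma voom and 0.96 with limma voom without a filter. Members past a 1.5-fold change, 7 as reported, were 18 with a pseudocount of 0.1 (5.65% of all genes), 20 with limma voom (5.87%) and 21 with limma voom without a filter (6.06%). The other mitosis lists (85 genes tested) and the DNA replication list (22 tested) together had 63 higher and 13 lower genes. Of all genes 29.7% were higher and 26.1% lower in that fit. At 5 RPKM, with fewer genes tested, 24 were higher, where 37.1% of all genes were higher. With total-read scaling 26 were lower, of 86 and 22 tested, where 45.6% of all genes were lower. Leaving out each library in turn gave 28 to 30 mitotic genes higher and 0 to 2 lower, a median of 0.62 to 0.67, 5 to 8 members past a 1.5-fold change, 2830 to 4103 genes higher and 2415 to 3754 lower over all genes, and 4 to 18 lower genes of the other lists. For these filtered fits no share of all genes past a 1.5-fold change is given beside the 5 to 8 members. With all 6 libraries 4.43% of all genes were past a 1.5-fold increase. Mitotic genes lower were 2 without labelled-positive replicate 1 and 0 without each other library. The log2 fold change of Mki67 reversed to -0.013 with total-read scaling and to -0.14 without labelled-positive replicate 1, with or without the filter, where that of Cenpf also reversed, to -0.098. Leaving out each library gave -0.14 to 0.27 for Mki67 and -0.27 to 0.12 for Smc2, which reversed to 0.0013 without labelled-negative replicate 1 and to 0.028 and 0.12 without labelled-positive replicates 2 and 3. These reversed values of Mki67, Cenpf and Smc2 did not pass the test. The causes of these shifts were not tested. When only the 150 bases before the start were searched, the CHR was found in 40% of member windows and 9.70% of all promoters, and the CCAAT box in 80% and 24.5%. With the replicate number as a block 30 of 36 members were higher and 1 lower (30.9% and 27.4% of all genes), and Mad2l1 was not called; the deviations of same-numbered libraries from their group means correlated at 0.303, -0.061 and 0.307, and labelled-positive replicate 2 correlated best with labelled-negative replicate 3, so the numbers were not taken to pair the samples. At this depth Cdc25c had 10 to 52 reads per library, the fewest of the 40.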
